A study of Mus musculus with 16 samples.

Results

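Lipid droplet coat proteins, CIDE proteins and patatin-like lipases were followed in the liver RNA of mice given ethanol and an inhibitor of microbial choline metabolism. The gene group holds 10 genes of the 24082 genes in the deposited table. They were chosen by symbol: Plin2, Plin4, Plin5, Cidea, Cideb, Cidec, Pnpla2, Pnpla3, Pnpla5 and G0s2. All mice were female C57BL6/J, aged 9 to 11 weeks, and received a liquid diet for a 25-day model. They were either ethanol-fed, up to a final 6% vol/vol, or pair-fed a diet in which maltose dextrin replaced the calories of ethanol. Each diet was given with vehicle or with iodomethylcholine (IMC) at 0.06% wt/wt in the diet, where IMC blocks the bacterial enzyme that cleaves choline to trimethylamine. This gave 4 groups of 4 livers, called Pair Vehicle, Pair IMC, EtOH Vehicle and EtOH IMC, with 1 library per mouse. The labels name no altered gene in any group. The study describes lower diet intake and body weight when IMC was combined with ethanol, so that in those mice drug and intake cannot be told apart. A figure legend of the study also marks a body weight difference between pair-fed mice with and without IMC. Drug and body weight therefore cannot be told apart in pair-fed mice either.

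Hepatocytes store triglyceride in lipid droplets, a neutral lipid core under a phospholipid monolayer that carries proteins. Perilipins coat the droplet and control the access of lipases, and CIDE proteins let droplets exchange lipid and enlarge. Adipose triglyceride lipase, encoded by Pnpla2, takes the first fatty acid from triglyceride, and the small protein G0S2 inhibits it. Pnpla3 and Pnpla5 encode relatives of this lipase with the same patatin-like domain, and Pnpla3 is best known in the liver for its link to steatosis in people.

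The libraries held between 9632659 and 12601199 reads on genes. Values are the deposited normalized counts after all 16 libraries had been put on 1 scale, and are called normalized counts below. Of the 10 genes, 9 reached 10 normalized counts in at least 4 libraries and were tested with 12522 genes in all, and Cidea was not. Values come from whole liver, so that fewer cells of a type and less RNA per cell cannot be told apart. The hepatocyte transcript Alb took 6.74% to 13.04% of the reads. The library numbers of the labels run from 1 to 8 for Pair IMC and EtOH Vehicle and from 9 to 16 for Pair Vehicle and EtOH IMC. An effect of IMC within 1 diet and an effect of ethanol within 1 treatment therefore cannot be told apart from this division, and neither can the difference of the IMC effect between the diets. The IMC effect averaged over both diets and the ethanol effect averaged over both treatments are balanced over it. All pair-fed livers have even and all ethanol-fed livers odd numbers. No effect of ethanol, the averaged one included, can therefore be told apart from the division into even and odd numbers. The labels do not say what the numbers stand for.

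Pnpla3 and Pnpla5 lie next to each other on chromosome 15 with 44661 bases and no coding gene between them, and Plin4 and Plin5 lie 1797 bases apart on chromosome 17. RefSeq promoters were found for 9 of the 10 genes. The stretches upstream of the start of transcription are shown for Pnpla3, Pnpla5, G0s2 and Cideb, which fell together with IMC in ethanol-fed mice, and for Plin5, which rose with IMC in pair-fed mice. Capitals mark matches, on either strand, to 6 short motifs: the nuclear receptor motif was searched as AGGTCA, the E-box as CACGTG, the CCAAT box by the letters of its name, the GC box as GGGCGG, the forkhead motif as TGTTTAC and the core of the cAMP response element as TGACG.
Pnpla3, chr15:84167566-84167815, plus strand: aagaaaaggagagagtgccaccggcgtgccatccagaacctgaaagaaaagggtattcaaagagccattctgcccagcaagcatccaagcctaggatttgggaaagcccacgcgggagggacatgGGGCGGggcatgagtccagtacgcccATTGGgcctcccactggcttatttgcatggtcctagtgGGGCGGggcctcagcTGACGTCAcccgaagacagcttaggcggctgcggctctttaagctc
Pnpla5, chr15:84123176-84123425, minus strand: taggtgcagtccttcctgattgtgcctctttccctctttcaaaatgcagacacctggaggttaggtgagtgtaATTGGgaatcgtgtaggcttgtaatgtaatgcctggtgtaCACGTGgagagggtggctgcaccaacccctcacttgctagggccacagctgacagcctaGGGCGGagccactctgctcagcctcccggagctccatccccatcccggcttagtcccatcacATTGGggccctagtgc
G0s2, chr1:193273218-193273438, minus strand: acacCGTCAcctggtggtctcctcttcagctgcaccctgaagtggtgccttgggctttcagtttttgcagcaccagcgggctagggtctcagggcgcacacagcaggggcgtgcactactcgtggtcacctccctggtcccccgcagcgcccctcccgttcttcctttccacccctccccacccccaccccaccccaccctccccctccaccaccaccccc
Cideb, chr14:55758459-55758674, minus strand: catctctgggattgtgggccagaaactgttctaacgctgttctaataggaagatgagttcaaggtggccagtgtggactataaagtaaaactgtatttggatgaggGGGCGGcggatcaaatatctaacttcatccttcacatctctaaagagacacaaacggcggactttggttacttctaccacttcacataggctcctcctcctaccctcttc
Plin5, chr17:56117597-56117798, minus strand: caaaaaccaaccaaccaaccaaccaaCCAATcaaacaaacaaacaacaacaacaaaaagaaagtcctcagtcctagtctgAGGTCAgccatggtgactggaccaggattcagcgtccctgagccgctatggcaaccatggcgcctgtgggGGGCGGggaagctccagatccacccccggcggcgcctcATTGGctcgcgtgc

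Sequences are from RefSeq on build GRCm38.p6 and read from 5′ to 3′ on the gene's strand. The Pnpla3 window of 250 bases held 2 GC boxes, where 33% of the 27025 promoters hold at least 1 in a window of that length. It also held 1 CCAAT box, found in 34.5% of them, and 2 overlapping copies of TGACG on opposite strands, together TGACGTCA, where 17.8% hold at least 1. The Pnpla5 window held 1 E-box, which 6.04% of promoters hold, 1 GC box and 2 CCAAT boxes. The only match in the 221 bases of G0s2 was 1 TGACG, present in 14.8% of windows of that length. The only match in the 216 bases of Cideb was 1 GC box, present in 27.9% of such windows. The 202 bases of Plin5 held 1 nuclear receptor motif, present in 11.3% of such windows. They also held 2 CCAAT boxes and 1 GC box, where 29.3% and 25% of such windows hold at least 1. None of the 6 motifs was matched in all of Pnpla3, Pnpla5, G0s2 and Cideb, and none was matched in the 229 bases upstream of Plin4. A match describes the letters of the window and not a bound site.

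**Figure D1:**
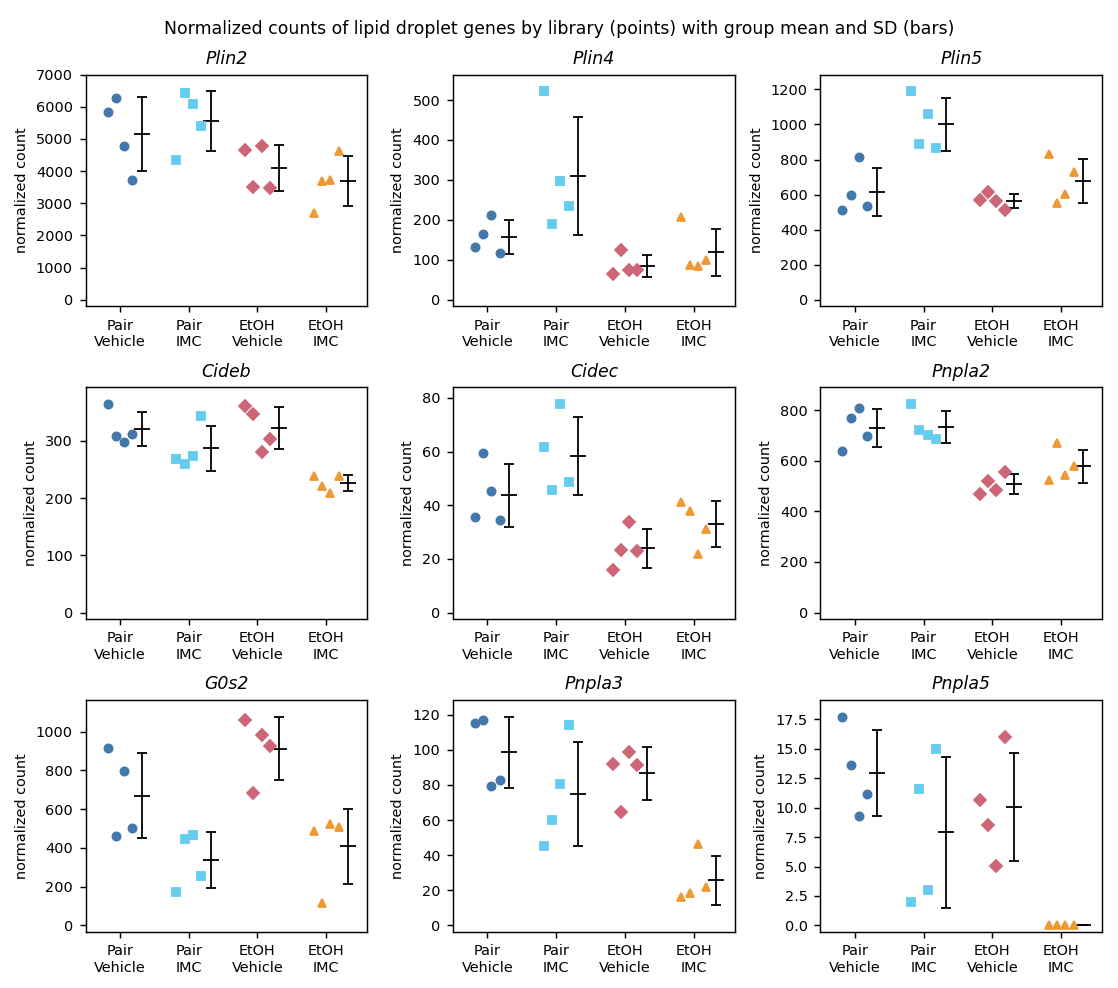
Normalized counts (y axis, linear from 0) of the 9 genes tested in each of the 16 libraries, by group, with the group mean and SD as bars. All EtOH IMC points of Pnpla5 lie at 0, those of Pnpla3 lie between 16.2 and 46.5, and Plin5 in Pair IMC lies between 868 and 1190, above the other pair-fed mice.

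Per length, Plin2 was the most abundant of these transcripts, with a median over the 16 libraries of 121 RPKM (reads per kb of exon, scaled to the reads of the library). Plin2 encodes the main perilipin of the hepatocyte droplet. On the same scale the median was 54.3 for G0s2, 26.5 for Plin5, 19.1 for Pnpla2 and 17.9 for Cideb. It was 4.46 for Pnpla3, 2.02 for Plin4, 1.85 for Cidec and 0.365 for Pnpla5. The low level of Pnpla5 means that its values rest on 120 reads over all libraries. Cidea, a CIDE protein best known from brown fat, had 1 read in 1 EtOH Vehicle library and none in the other 15. A count of 0 allows up to 3 reads, or 0.238 to 0.311 CPM in these libraries, so Cidea was not detectable above that level. Such limits cover counting error only.

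With IMC, both relatives of the lipase, its inhibitor and Cideb fell in ethanol-fed mice, and the perilipin Plin5 rose in pair-fed mice. In ethanol-fed mice Pnpla3, Pnpla5, G0s2 and Cideb fell with IMC (4 of the 9 genes tested), against 11.1% of all genes tested, and none rose, against 10.4%, also at an unadjusted p under 0.05 and with edgeR and DESeq2. In the same comparison these 4 genes had groups that did not overlap, which held for 25.3% of all genes. In pair-fed mice Plin5 rose, as did 4.32% of all genes, and none of the 9 fell, against 5.17%. At an unadjusted p under 0.05, 1 of the 9 fell there, G0s2, and with edgeR and DESeq2 none. Plin5 was also the only one of the 9 whose pair-fed groups did not overlap, as found for 14.3% of all genes. Averaged over both diets, IMC gave higher Plin4 and Plin5 (2 of 9, against 14.1% of genes) and lower Pnpla3, Pnpla5, G0s2 and Cideb (4 of 9, against 14%). The median log2 fold change with IMC over the 9 genes was -0.16 in ethanol-fed mice and 0.01 in pair-fed mice, against 0 for all genes in both. No gene of the 9 passed the test of the difference of the IMC effect between diets, which 0.319% of genes passed upwards and 0.791% downwards. At an unadjusted p under 0.05, 4 of the 9 passed: Plin5, Cideb, Pnpla3 and Pnpla5. DESeq2 on the whole reads called 2 of them, Pnpla3 and Pnpla5, and edgeR called none.

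With ethanol, each of the members called was lower and none was higher, by limma (also at an unadjusted p under 0.05), edgeR or DESeq2 on all libraries. The exception came with 1 library left out: without library 11, G0s2 was higher with ethanol averaged over both treatments (log2 fold change 0.59, adjusted p = 0.0351), against 0.33 (adjusted p = 0.425) with it. In vehicle mice Cidec and Pnpla2 fell (2 of 9), against 5.56% of genes that fell and 6.35% that rose, and the values of these 2 genes did not overlap between the groups, as for 19% of all genes. In IMC mice 8 of 9 fell with ethanol, against 8.61% of genes that fell and 7.87% that rose, and G0s2 was the exception. This count was 4 without library 2 or 13 and 5 without library 6 or 9. Plin5, Cideb, Cidec, Pnpla2 and Pnpla5 did not overlap there, against 19.2% of all genes. Averaged over both treatments 7 of 9 fell, with Cideb and G0s2 not called, against 13.2% of genes that fell and 13% that rose. Plin5 was among the 7 (log2 fold change -0.33, adjusted p = 0.0256), but not without library 2, 6, 7 or 13 (0.0501 to 0.0561). The median log2 fold change over the 9 genes was -0.32 in vehicle mice and -0.6 in IMC mice, against -0.01 and 0 for all genes. The ethanol effects in vehicle mice and the IMC effects in ethanol-fed mice share the EtOH Vehicle libraries, and the ethanol effects in IMC mice share libraries with both IMC effects. The ethanol comparisons depend on the common scale: in the values as deposited, ethanol-fed libraries stood 0.187 higher on the log2 scale in the median gene. As deposited, 2801 genes were called higher and 199 lower in vehicle mice, against 795 and 696 here. The corresponding numbers were 3183 and 441 against 986 and 1078 in IMC mice, and 4730 and 492 against 1622 and 1651 averaged over both. On the deposited scale Pnpla2 was the only member called lower in vehicle mice, and Plin4, Pnpla3 and Pnpla5 were those called lower in IMC mice.

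**Figure D2:**
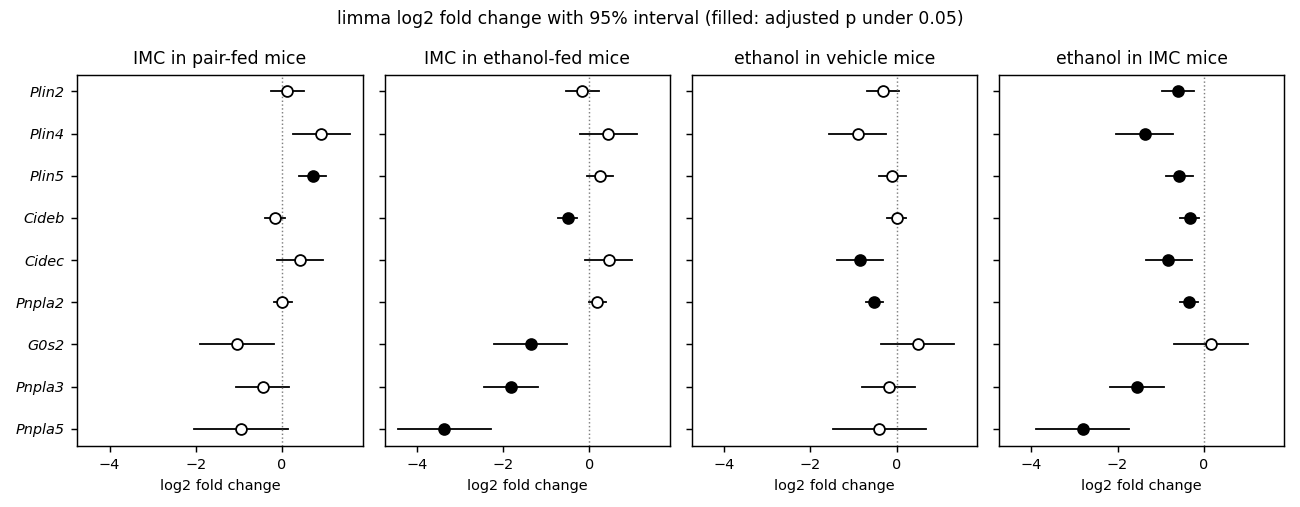
Log2 fold changes (x axis) of the 9 genes tested with 95% intervals from limma for the effect of IMC within each diet and of ethanol within each treatment, where filled circles had an adjusted p under 0.05. In ethanol-fed mice the IMC effects on Pnpla5 (-3.37), Pnpla3 (-1.82), G0s2 (-1.36) and Cideb (-0.50) are filled, and all filled circles of the ethanol panels lie below 0. The value of Pnpla5 is set against a group with no reads and depends on the prior count.

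Pnpla3 had 92, 65, 99 and 91 normalized counts in the EtOH Vehicle libraries 1, 3, 5 and 7, and 16.2, 18.5, 46.5 and 21.6 in the EtOH IMC libraries 9, 11, 13 and 15. Every EtOH IMC liver lay below every EtOH Vehicle liver, and library 13 was the highest of its group. The mean fell from 86.6 ± 14.9 to 25.7 ± 14 (SD, n = 4 each). On the log2(value + 1) scale of the fit, on which all folds here are given, it was 3.53-fold lower (log2 fold change -1.82, SE 0.296, limma adjusted p = 0.000456). In pair-fed mice Pnpla3 had 115, 117, 79 and 83 normalized counts with vehicle and 45, 60, 81 and 114 with IMC. These groups overlapped, and the log2 fold change of -0.45 had a 95% interval of -1.07 to 0.17 (adjusted p = 0.367). The IMC effect differed between the diets by -1.37 (interval -2.25 to -0.49, adjusted p = 0.122). With DESeq2 the adjusted p was 0.0467, and over all alternatives it ranged from 0.0372, without library 13, to 0.226. Between EtOH Vehicle and Pair Vehicle the log2 difference was -0.18 (adjusted p = 0.731), whereas EtOH IMC was 2.93-fold below Pair IMC (adjusted p = 0.00221). EtOH IMC thus had the lowest mean, its library 13 alone overlapped Pair IMC, and the other 3 groups overlapped each other.

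Pnpla5 had 10.69, 8.50, 5.05 and 16.03 normalized counts in EtOH Vehicle and no read in any of the 4 EtOH IMC livers. With a floor of 3 reads per library it was at least 3.7-fold lower in EtOH IMC than in EtOH Vehicle (limma adjusted p = 0.000283). The fitted log2 fold change of -3.37 is no measure of its size, as it depends on the prior count and ran from -6.55 to -1.54 over the alternatives. In Pair Vehicle it had 17.71, 13.61, 9.33 and 11.13 normalized counts and in Pair IMC 2.02, 11.61, 2.99 and 15.02. The Pair IMC livers were split, with libraries 2 and 6 near the floor and libraries 4 and 8 within the range of Pair Vehicle, and the difference did not pass the test (log2 fold change -0.95, interval -2.04 to 0.13, adjusted p = 0.258). Against Pair IMC, EtOH IMC was at least 2.91-fold lower (adjusted p = 0.00165). Pnpla5 passed the filter on low values through the other 3 groups alone. The difference between the diets had an adjusted p of 0.117 in limma and of 0.00581 in DESeq2, and its fitted size depends on the prior count because 1 group had no reads. Pnpla3 and Pnpla5 correlated across the 16 libraries with r = 0.89, and with r = 0.37 once group means had been removed, given as a description. The IMC effects on both genes in ethanol-fed mice passed the test under all 28 alternatives that could be run.

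G0s2 had 1059, 682, 982 and 928 normalized counts in EtOH Vehicle and 485, 115, 521 and 508 in EtOH IMC. The ranges did not overlap, and library 11 lay far below the other 3 EtOH IMC livers. The mean went from 913 ± 163 to 407 ± 195 (log2 fold change -1.36, SE 0.406, adjusted p = 0.0238). The size of this effect rested in part on library 11, without which the log2 fold change was -0.83 (adjusted p = 0.0576). The adjusted p was also 0.0587, 0.0546 and 0.0517 without EtOH Vehicle libraries 1, 5 and 7. In pair-fed mice G0s2 had 913, 463, 797 and 505 normalized counts with vehicle and 175, 448, 465 and 254 with IMC. Here 1 IMC liver lay above the lowest vehicle liver, and the log2 fold change was -1.05 (interval -1.90 to -0.19, adjusted p = 0.112). The adjusted p was 0.0222 when library 11 was left out of the common fit. Averaged over both diets, G0s2 was 2.31-fold lower with IMC (adjusted p = 0.00468), and this held under all 28 alternatives. Ethanol gave log2 differences of 0.49 in vehicle mice (interval -0.37 to 1.34, adjusted p = 0.461) and 0.17 in IMC mice (interval -0.68 to 1.02, adjusted p = 0.817, or 0.70 with an adjusted p of 0.109 without library 11). EtOH Vehicle had the highest mean of the 4 groups, but it overlapped Pair Vehicle.

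Pnpla2, the lipase that G0S2 inhibits, had 639, 769, 808 and 697 normalized counts in Pair Vehicle and 467, 518, 484 and 556 in EtOH Vehicle. All EtOH Vehicle livers lay below all Pair Vehicle livers, and the 1.43-fold fall passed the test in each of 29 alternatives (log2 fold change -0.52, SE 0.097, adjusted p = 0.00295). With IMC the values were 824, 721, 700 and 687 in pair-fed and 523, 670, 544 and 579 in ethanol-fed mice, again with no overlap. That fall was 1.27-fold (adjusted p = 0.0227), and without library 2, 9 or 13 the adjusted p was 0.0751, 0.0676 and 0.0649. The adjusted p was also 0.259 in limma on the values as deposited and 0.0536 in edgeR without library 15. The ethanol effect averaged over both treatments was -0.43 (adjusted p = 0.000279). IMC gave log2 differences of 0.01 in pair-fed mice (interval -0.19 to 0.22) and 0.19 in ethanol-fed mice (interval -0.01 to 0.39), neither past the test.

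**Figure D3:**
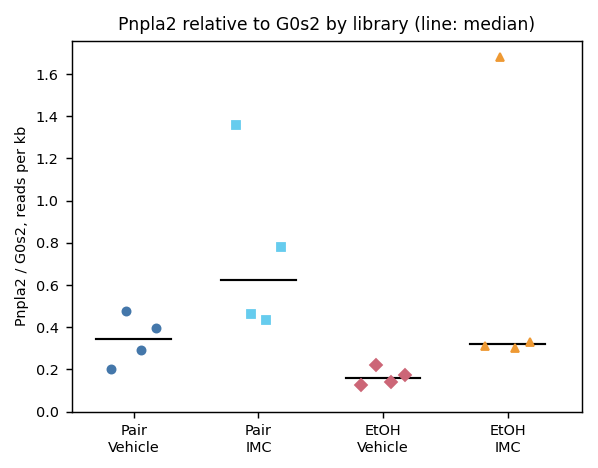
Ratio of Pnpla2 to G0s2 reads per kb (y axis, linear from 0) in each of the 16 livers by group, with the group median as a line. EtOH Vehicle holds the lowest median (0.157) and Pair IMC the highest (0.622), and 1 EtOH IMC liver stands apart at 1.68.

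Set against each other per length, Pnpla2 was below its inhibitor in most livers. The ratio of Pnpla2 to G0s2 reads per kb had a median of 0.345 in Pair Vehicle (0.202 to 0.479), of 0.622 in Pair IMC (0.434 to 1.36), of 0.157 in EtOH Vehicle (0.127 to 0.219) and of 0.32 in EtOH IMC (0.301 to 1.68). The EtOH IMC livers lay above all EtOH Vehicle livers, and 3 of them lay within the range of Pair Vehicle, whereas library 11 had the value of 1.68. The ratio is given as a description of both genes and was not tested. Over the 16 libraries Pnpla2 and G0s2 correlated with r = -0.52, and with r = -0.65 within groups.

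Plin5 encodes a perilipin of oxidative tissues that binds the Pnpla2 lipase and links droplets to mitochondria. It had 515, 596, 817 and 533 normalized counts in Pair Vehicle and 1190, 887, 1062 and 868 in Pair IMC. Each Pair IMC liver lay above each Pair Vehicle liver, and the mean rose from 615 ± 139 to 1002 ± 152, a fitted rise of 1.64-fold (log2 fold change 0.72, SE 0.148, adjusted p = 0.00661), in all 29 alternatives. In ethanol-fed mice the values were 568, 615, 563 and 514 with vehicle and 829, 550, 605 and 728 with IMC, which overlapped (log2 fold change 0.25, interval -0.06 to 0.56, adjusted p = 0.246). The difference between the diets was -0.47 (interval -0.91 to -0.03, adjusted p = 0.295). With IMC, ethanol-fed mice had 1.48-fold less Plin5 than pair-fed mice (adjusted p = 0.0149, or 0.0512 without library 2 and 0.065 as deposited). With vehicle the log2 difference was -0.10 (adjusted p = 0.693). Pair IMC was thus the highest group, and the other 3 groups overlapped each other.

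Plin4, the perilipin encoded beside Plin5, is best known from fat and muscle. It had 132, 164, 212 and 117 normalized counts in Pair Vehicle, 522, 189, 297 and 235 in Pair IMC, 64, 124, 73 and 74 in EtOH Vehicle and 207, 86, 84 and 101 in EtOH IMC. Library 2 of Pair IMC, library 3 of EtOH Vehicle and library 9 of EtOH IMC were the highest of their groups by a wide gap. The IMC effect averaged over both diets was 0.68 on the log2 scale (SE 0.221, adjusted p = 0.0287). It missed the threshold without library 1, 2, 5, 7, 9, 10 or 16, with adjusted p of 0.0515 to 0.0587. Within diets, the log2 difference with IMC was 0.91 in pair-fed mice (interval 0.26 to 1.57, adjusted p = 0.0726) and 0.44 in ethanol-fed mice (interval -0.21 to 1.10, adjusted p = 0.33). The value in pair-fed mice was 0.63 (adjusted p = 0.209) without library 2. That in ethanol-fed mice was 0.65 without library 3 and 0.15 without library 9, with adjusted p of 0.179 and 0.759. Of 29 alternatives, 2 called the effect in pair-fed mice: DESeq2 (adjusted p = 0.0236) and limma without library 9 (adjusted p = 0.0406). Ethanol lowered Plin4 in IMC mice by 2.59-fold (adjusted p = 0.007, in all 29 alternatives). In vehicle mice the log2 difference with ethanol was -0.90 (interval -1.56 to -0.24, adjusted p = 0.0678), which became -1.10 once library 3 had been left out (adjusted p = 0.0436), and the adjusted p was 0.043 and 0.0375 without library 2 and 9. Of 29 alternatives 5 called it. These included DESeq2 (adjusted p = 0.0431) and limma on the compared libraries alone (adjusted p = 0.0301). Averaged over both treatments Plin4 was 2.2-fold lower with ethanol (adjusted p = 0.00131).

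**Figure D4:**
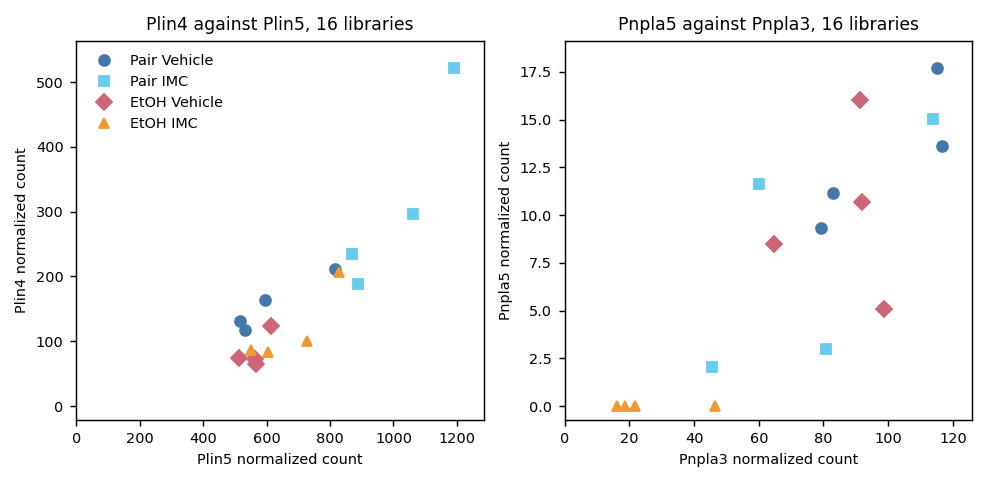
Normalized counts of Plin4 against Plin5 and of Pnpla5 against Pnpla3 in the 16 libraries, with 1 point per liver and both axes linear from 0. Plin4 and Plin5 are highest in the same Pair IMC liver, and the 4 EtOH IMC livers have no Pnpla5, and 3 of them the lowest Pnpla3 (16.2 to 21.6).

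The 2 neighbouring perilipin genes ran in parallel, with r = 0.88 over the 16 libraries and r = 0.83 once group means had been removed, the highest within-group value of all pairs of the 9 genes. Plin2 followed neither: its r was 0.27 with Plin4 and 0.24 with Plin5. Plin2 had 5838, 6261, 4787 and 3711 normalized counts in Pair Vehicle and 4329, 6429, 6074 and 5408 in Pair IMC. In EtOH Vehicle it had 4640, 3493, 4792 and 3485 and in EtOH IMC 2708, 3700, 3707 and 4631. All 4 groups overlapped. Ethanol lowered Plin2 by 1.37-fold when averaged over both treatments (log2 fold change -0.46, SE 0.128, adjusted p = 0.0136). In IMC mice the fall was 1.52-fold (adjusted p = 0.0299), but the adjusted p was 0.0551 to 0.0985 without library 4, 6, 8, 9 or 13. The limma adjusted p was also 0.0669 with quantile normalization, 0.052 with no mean trend and 0.0954 as deposited. Of 29 alternatives 21 called this fall. In vehicle mice the log2 difference was -0.32 (interval -0.69 to 0.06, adjusted p = 0.266). With IMC the log2 difference was 0.12 in pair-fed mice (interval -0.26 to 0.50) and -0.16 in ethanol-fed mice (interval -0.54 to 0.22), and neither passed the test.

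Cideb, the CIDE protein of hepatocytes, also known for its part in loading lipid onto VLDL, fell with IMC in ethanol-fed mice. It had 361, 346, 281 and 304 normalized counts in EtOH Vehicle and 238, 221, 210 and 239 in EtOH IMC. The groups did not overlap, and the fall was 1.42-fold (log2 fold change -0.50, SE 0.107, adjusted p = 0.0032), in all 29 alternatives. In pair-fed mice the values were 364, 308, 297 and 313 with vehicle and 269, 260, 274 and 344 with IMC. Library 8 alone overlapped Pair Vehicle, and the log2 difference was -0.16 (interval -0.39 to 0.06, adjusted p = 0.357), or -0.26 (adjusted p = 0.118) without it. Ethanol gave a difference of 0.01 in vehicle mice (interval -0.22 to 0.23) and a 1.26-fold fall in IMC mice (adjusted p = 0.0413), which was lost when library 2, 6, 8, 9, 11, 13 or 15 was left out (adjusted p up to 0.136). Of 29 alternatives 15 called this fall. Upper quartile edgeR (adjusted p = 0.0675) and limma on the values as deposited (adjusted p = 0.342) were among those that did not. Of the exon bases of Cideb, 76.3% overlap exons of Nop9, a ribosome biogenesis gene on the opposite strand, and whether the counts used strand is not given in the sources used here. Reads of the pair may therefore not be fully separated. Nop9 moved the other way with IMC, by 0.43 in ethanol-fed mice (adjusted p = 0.00699) and by 0.36 in pair-fed mice (adjusted p = 0.0346), and its part in the values of Cideb was not tested.

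Cidec, a CIDE protein that enlarges droplets in fat and in fatty liver, was low, at 16 to 78 normalized counts. It had 35.4, 59.3, 45.5 and 34.4 in Pair Vehicle, 61.6, 45.5, 77.7 and 48.8 in Pair IMC, 16.04, 23.4, 33.7 and 23.1 in EtOH Vehicle and 41.0, 37.9, 21.8 and 31.0 in EtOH IMC. Pair-fed livers lay above ethanol-fed livers of the same treatment without overlap. Averaged over both treatments Cidec was 1.78-fold lower with ethanol (log2 fold change -0.83, SE 0.18, adjusted p = 0.00281), in each of the 27 alternatives that could be run. The effects within each treatment were of like size, 1.8-fold in vehicle mice (adjusted p = 0.0383) and 1.76-fold in IMC mice (adjusted p = 0.0365). They were less secure: in vehicle mice the adjusted p was 0.071 to 0.118 without library 1, 3, 7, 12 or 14, and in IMC mice 0.0795 to 0.117 without library 2, 6, 13 or 15. Of 28 alternatives, 18 called the effect in vehicle mice and 20 that in IMC mice. The log2 difference with IMC was 0.41 in pair-fed and 0.45 in ethanol-fed mice, and neither passed the test (adjusted p = 0.33 and 0.226). Averaged over both diets it was 0.43 (adjusted p = 0.0838), and 0.0398 to 0.0461 without library 5, 12 or 13.

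Other genes of the droplet and of its triglyceride were read from lists. Counts from these lists stand beside the shares of all genes tested that limma called. With IMC in ethanol-fed mice 10.4% rose and 11.1% fell, and in pair-fed mice 4.32% and 5.17%. With ethanol in vehicle mice 6.35% rose and 5.56% fell, and in IMC mice 7.87% and 8.61%. No list was tested as a set. Among 26 other genes of droplet assembly and coat that were tested, 3 rose and 2 fell with IMC in ethanol-fed mice, with a median log2 fold change of 0.07. Hsd17b13, a droplet enzyme linked to steatosis in people, rose from 4798 ± 415 to 8134 ± 858 normalized counts (log2 fold change 0.76, adjusted p = 8.44e-05), and Dhrs3, a retinal reductase, fell by 0.66 (adjusted p = 0.00183). In vehicle mice Fitm2, which helps to form droplets, fell by 0.37 with ethanol (adjusted p = 0.00473) and was the only one of the 26 that limma called. At an unadjusted p under 0.05, 4 were higher, and DESeq2 called 1 higher and edgeR none. In pair-fed mice 2 of the 26, Plin3 and Acsl3, fell with IMC and none rose, though 4 were higher at an unadjusted p under 0.05 in limma. Of 13 triglyceride synthesis genes tested, 3 fell with IMC in ethanol-fed mice and none rose (median -0.10), none also at an unadjusted p under 0.05, while DESeq2 called 1 higher. They included Gpat2 (log2 fold change -1.35, adjusted p = 0.000591) and Dgat2, which adds the last fatty acid of triglyceride (log2 fold change -0.61, adjusted p = 0.00882). With ethanol in vehicle mice 3 of the 13 rose and 1 fell, and Agpat2 (0.61, adjusted p = 0.00362) and Gpat4 (0.33, adjusted p = 0.0305) were among those that rose.

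Of 15 other neutral lipases and cofactors tested, 2 rose and 5 fell with IMC in ethanol-fed mice, with a median of 0.04. Abhd5, the activator of the Pnpla2 lipase, rose from 351 ± 33.7 to 473 ± 18.5 normalized counts (log2 fold change 0.43, adjusted p = 0.00199). Lipc, the secreted hepatic lipase, fell by 0.95 (adjusted p = 0.000131). In ethanol-fed mice Abhd5 was thus higher and G0s2 lower with IMC, while Pnpla2 itself did not pass the test. The G0s2 call was lost without library 1, 5, 7 or 11 (limma adjusted p of 0.0517 to 0.0587). In pair-fed mice the log2 difference of Abhd5 with IMC was 0.26 (limma adjusted p = 0.0631). Lipase activity was not tested. With ethanol in vehicle mice Ces2c rose by 1.41 (adjusted p = 0.0238) and Pnpla8, a mitochondrial phospholipase, fell by 0.30 (adjusted p = 0.037), and the other 13 were not called. In pair-fed mice 2 of the 15 rose and 3 fell with IMC. Lipc was among those that fell (-0.57, limma adjusted p = 0.0142). Its IMC effect differed between the diets by -0.39, which did not pass the test (limma adjusted p = 0.341).

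Of 14 transcription factors of lipid storage, 3 rose and 2 fell with IMC in ethanol-fed mice. Pparg rose from 97.8 ± 17.7 to 165 ± 26.7 normalized counts (log2 fold change 0.75, adjusted p = 0.00365) and Hnf4a, a master factor of the hepatocyte, rose by 0.62 (adjusted p = 0.00298). In pair-fed mice 1 of the 14 rose with IMC, Hnf4a (0.71, limma adjusted p = 0.00322), and 1 fell, Srebf1. With ethanol in vehicle mice 1 rose and 2 fell, and these 2 were Ppara (-0.48, adjusted p = 0.0378) and the bile acid receptor gene Nr1h4 (-0.50, adjusted p = 0.0102). Of 22 targets of PPAR alpha outside the droplet, 1 rose and 4 fell with IMC in ethanol-fed mice (median -0.19). Fgf21, a hormone of fasting, was the one that rose (1.70, adjusted p = 0.0143) and Ucp2 was among those that fell (-0.68, adjusted p = 0.0208). In pair-fed mice 3 of the 22 rose with IMC (median 0.09): Ehhadh, Cyp4a14 and Fgf21 (1.85 for Fgf21, limma adjusted p = 0.0185). None fell there by limma or edgeR, though 3 were lower at an unadjusted p under 0.05 and 1 with DESeq2. With ethanol in vehicle mice none of the 22 rose (2 at an unadjusted p under 0.05, none with edgeR and 1 with DESeq2) and 3 fell, including Cpt1a, which admits fatty acids to mitochondria (-0.54, adjusted p = 0.00852), and Fgf21 (-1.51, adjusted p = 0.0397).

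Pnpla3 is itself a known target of SREBP1c and ChREBP, the factors that switch on fatty acid synthesis. Of 12 other genes listed as targets of these factors, 6 fell with IMC in ethanol-fed mice and none rose, with a median log2 fold change of -0.57. The 12 include Srebf1, the gene of SREBP1c itself, which was not among the 6. At an unadjusted p under 0.05, 1 of the 12 was higher, as with DESeq2, and edgeR called none higher. Thrsp fell by 1.68 (adjusted p = 0.00157) and Acly, which makes cytosolic acetyl-CoA, by 0.97 (adjusted p = 0.00193). In pair-fed mice 3 of the 12 rose with IMC, Scd1, Me1 and Tkfc, and 1 fell, Srebf1 (median 0.31). The difference between the diets passed the test for Acly, Scd1 and Pklr, all in the lower direction. With ethanol in vehicle mice Fasn, the fatty acid synthase, rose by 0.66 (adjusted p = 0.0177) and none of the 12 fell (2 at an unadjusted p under 0.05, none with edgeR and 1 with DESeq2). In IMC mice 1 of the 12, Srebf1, rose with ethanol and 6 fell.

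Markers of other cells were read beside these values. The adipocyte transcripts Adipoq, Lep, Retn and Plin1 reached at most 11, 2, 8 and 9 reads in any library. Of the other markers, Cfd reached 19, Fabp4 159, Lipe 129 and Adrb3 87. Of the 9 adipocyte markers 8 were in the table and 4 were tested, and Adrb3 fell with IMC in ethanol-fed mice (-1.47, adjusted p = 0.000521). The summed level of the 8 ran from 271 to 320 in EtOH Vehicle and from 196 to 240 in EtOH IMC, from 289 to 357 in Pair Vehicle and from 184 to 318 in Pair IMC. Between EtOH Vehicle and EtOH IMC the means that fell most in counts were those of Adrb3 (65.2 to 22.8) and Lipe (106.7 to 76.8). Those of Lep, Plin1 and Fabp4 were also lower. The means of Adipoq (0.27 to 1.96), Retn (0.48 to 2.03) and Cfd (4.82 to 5.80) were higher, on few reads. The part of fat cells in the values of Plin4, Cidec and G0s2 was not tested. Stellate cells also store lipid droplets, of retinyl ester, and 3 of their 8 markers, Reln, Ecm1 and Colec11, fell with IMC in ethanol-fed mice, with log2 fold changes of -1.26 for Reln (adjusted p = 8.64e-05) and -1.18 for Ecm1 (adjusted p = 7.25e-05). The summed stellate markers ran from 5814 to 6982 in EtOH Vehicle, from 3508 to 4744 in EtOH IMC, from 4177 to 6333 in Pair Vehicle and from 4409 to 5665 in Pair IMC. With ethanol in vehicle mice Lrat (1.16, adjusted p = 0.00202) and Dcn (0.40, adjusted p = 0.0243) of this list rose. The part of stellate cells in the lower Pnpla3, Pnpla5, G0s2 and Cideb of EtOH IMC was not tested. None of 8 macrophage markers was called by limma for IMC within either diet or for ethanol in vehicle mice, nor by edgeR or DESeq2. At an unadjusted p under 0.05, 1 was lower with IMC in ethanol-fed mice and 1 higher with ethanol in vehicle mice. Their sums overlapped (4011 to 5398 in EtOH Vehicle, 2944 to 4670 in EtOH IMC). Of 9 hepatocyte markers Hnf4a alone was called with IMC by limma, higher in both diets. In pair-fed mice DESeq2 called 3 higher with IMC and edgeR 1, and 3 had an unadjusted p under 0.05, and in ethanol-fed mice each tool called 1. None was called by limma with ethanol in vehicle mice, where DESeq2 called 1 and edgeR none and 3 had an unadjusted p under 0.05.

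For each of the 9 genes the 2 genes with the most similar values over the 16 libraries were listed by Pearson's r as a description. They were Tead3 (0.848) and Chkb (0.83) for Plin2, Taf1a (0.927) and Myo1e (0.912) for Plin4, and Plin4 (0.877) and Zswim8 (0.873) for Plin5. For Cideb they were Lyrm5 (0.956) and Dennd6b (0.92), and for Cidec Baz1b (0.896) and Rbm7 (0.843). Pnpla2 was followed most closely by March5 (0.928) and Rnase4 (0.924), and G0s2 by Tle3 (0.907) and Col20a1 (0.869). For Pnpla3 they were Optn (0.899) and H2-Q10 (0.893), and for Pnpla5 Pmf1 (0.913) and Ugt1a5 (0.906). The same 16 libraries and group differences underlie all of these values.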

How the data were processed

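RNA sequencing libraries of mouse liver were prepared with a TruSeq Directional kit. Reads were trimmed with Trim Galore, checked with FastQC, aligned with STAR to mm10 and normalized in edgeR, per the submitters' processing notes and the methods. The counting tool and its strand setting are not given in the sources used here. The study describes single-end reads and the labels paired-end reads.

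The deposited table holds a signal per gene and library: read counts that the authors had scaled by 1 size factor per library, with 27212 rows for 24082 Ensembl IDs. The 430 IDs listed under several symbols had identical values and were used once. Whole reads were recovered from 100% of the values within a tolerance of 0.01, with 1 read worth 0.906 to 1.177. The recovered factors differed by at most 0.0445% from a median ratio taken over the libraries of 1 diet at a time, and by up to 2.48% from upper quartiles, which the methods name. The 2 diets had thus been scaled separately. In library 15 that value of 1 read is close to 1, so counts were also tested without it.

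All 16 libraries were rescaled by a median ratio over 13121 genes (factors 0.9398 to 0.9449 for pair-fed, 1.0734 to 1.0789 for ethanol-fed). Genes that reached a rescaled value of 10 in 4 or more libraries (12522) were tested on log2(value + 1) with limma 3.58.1 (4 group means, moderated variance with a mean trend), two-sided, with Benjamini-Hochberg adjustment over all of them and a threshold of 0.05. Fold changes on this scale understate those of low genes. Intervals are 95% intervals. Replicates are separate mice. The study counts diet intake by cage, and the labels do not give the cage of a mouse. Mice that shared a cage were therefore treated as independent. Sequencing reads carry no molecular identifiers.

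Alternatives were the values as deposited, quantile normalization, pseudocounts of 0.1 and 5, no filter, a mean of at least 100, the libraries of a comparison alone, no mean trend, leaving out each library, and edgeR 4.0.16 (TMM and upper quartile) and DESeq2 1.42.0 on the recovered reads. The count tests without library 15 were added after the data had been seen. With edgeR and TMM 1159 and 2795 genes were called for IMC in pair-fed and ethanol-fed mice, and 1551 and 2042 for ethanol in vehicle and IMC mice. The fits were tested on simulated data.

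Levels per length used exon lengths of GENCODE vM21 (GRCm38), which matched 24026 IDs. Promoters were read from RefSeq. The genes and lists were chosen with earlier results of these data known. Named from each list were the 2 genes with the smallest adjusted p past the threshold for IMC in ethanol-fed mice and for ethanol in vehicle mice. Other genes were named where a count of 5 or fewer called for it, after their values had been seen. The study's human samples and its other assays were not used here. R 4.3.3 and Python 3.11.15 were used.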

Additional observations from a re-analysis of the deposited data

Results flagged for a closer look

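In 4 of the 35 groups of 4 libraries examined, 1 library stood apart from the other 3 by a gap past Dixon's 95% critical value, where chance gives about 1 in 20 groups. Plin4 was 124.3 normalized counts in EtOH Vehicle library 3, against 64.15 to 74.15 in the others of that group. Plin4 was also 206.9 in EtOH IMC library 9, against 84.08 to 100.5. Cideb was 344.1 in Pair IMC library 8, against 260.3 to 273.9 in the other Pair IMC livers. G0s2 was 115.3 in EtOH IMC library 11, against 484.8 to 521.3 in the others. Without these libraries, the log2 difference of Plin4 with IMC in ethanol-fed mice was 0.65 (library 3 left out) or 0.15 (library 9 left out), against 0.44 with all of them. That of Cideb with IMC in pair-fed mice was -0.26 against -0.16, and that of G0s2 with IMC in ethanol-fed mice -0.83 against -1.36.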

How the results depend on the processing

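Of 1779 repeats of a member's test under an alternative, 1665 kept direction and side of the threshold, 64 lost a call, 17 gained one and 33 changed sign, all 33 of these between values that passed in neither setting; the cause was not tested. With 4 livers a group small effects could be missed, and the intervals given are no limit of detection. Some effects with an interval on 1 side of 0 were not called after adjustment over all genes. An example is Plin4 with IMC in pair-fed mice (0.26 to 1.57, limma adjusted p = 0.0726). Values of Pnpla5 and Cidec rest on few reads. The number of members called for IMC in pair-fed mice (1) was 2 with DESeq2 and 1 to 2 with single libraries left out. For IMC in ethanol-fed mice (4) it was 2 with a mean of at least 100, where 6 members remained to be tested, and 3 to 4 with libraries left out. For the difference between diets (0) it was 1 with a pseudocount of 0.1, 2 with DESeq2 and 0 to 1 with libraries left out. For ethanol in vehicle mice (2) it was 1 as deposited, with no filter, with a mean of at least 100, with upper quartile edgeR and with edgeR without library 15, and 1 to 3 with libraries left out. For ethanol in IMC mice (8) it was 3 as deposited, 5 with a mean of at least 100, 5 with edgeR without library 15 and 4 to 8 with libraries left out. For ethanol averaged over both treatments (7) it was 4 with a mean of at least 100 and 6 to 8 with libraries left out. For IMC averaged over both diets (6) no alternative moved it by more than 1.5 times.

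With single libraries left out, Plin2 ran from -0.02 to 0.24 for IMC in pair-fed mice and from -0.09 to 0.05 averaged over both diets, and Pnpla2 from -0.05 to 0.06 in pair-fed mice. The difference between diets ran from -0.14 to 0.21 for Cidec and from -0.59 to 0.21 for G0s2. For ethanol in vehicle mice Plin5 ran from -0.18 to 0.04 and Cideb from -0.05 to 0.07, and for ethanol in IMC mice G0s2 ran from -0.10 to 0.70. Quantile normalization gave -0.01 for Pnpla2 with IMC in pair-fed mice and 0.02 for Plin2 averaged over both diets, and upper quartile edgeR gave -0.02 for Pnpla2. As deposited, ethanol gave 0.09 for Plin5 and 0.00855 for Pnpla3 in vehicle mice and 0.03 for Cideb averaged over both treatments.

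Over all genes, the 1188 calls for IMC in pair-fed mice were 691 when those libraries were fitted alone and 537 and 543 without libraries 4 and 6. The 139 calls for the difference between diets were 80 with no filter, 82 with no mean trend, 339 with DESeq2 (266 without library 15), 72 with edgeR without library 15 and 54 to 164 with libraries left out. For ethanol in vehicle mice 1491 calls were 3000 as deposited, 803 without library 5 and 974 without library 14. In IMC mice 2064 were 3624 as deposited, 1368 without library 15 and 1344 with edgeR without it, and averaged over both treatments 3273 were 5222 as deposited. No paired analysis was made, because the labels number each library once and do not say which mice were matched or shared a cage.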

Other observations

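The spread between mice of a group, as the SD in percent of the mean, differed between genes and groups. For G0s2 it was 32.9% in Pair Vehicle and 17.8% in EtOH Vehicle, and 42.8% in Pair IMC and 47.9% in EtOH IMC. For Pnpla3 it was 20.5% and 17.2% with vehicle and 39.6% and 54.5% with IMC, in pair-fed and ethanol-fed mice. For Plin4 the values were 26.9% and 32.5% with vehicle and 47.5% and 49.3% with IMC. The EtOH IMC values of G0s2 and Plin4 include libraries 11 and 9, which stood apart from their groups. Other genes did not share this direction. Plin2 had 22.2% and 17.3% with vehicle and 16.6% and 21.3% with IMC. Plin5 had 22.6% and 7.31% with vehicle and 15.2% and 18.5% with IMC, and Cidec 26.5% and 30.3% against 25% and 25.9%. Pnpla2 stayed at 7.78% to 11.2% in all groups. In Cideb the smallest spread was in EtOH IMC, at 6.18%, against 9.31% to 13.5% in the other groups. These spreads rest on 4 mice each and were not tested.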
